A study of Drosophila melanogaster with 6 samples.

Results

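Cytosolic ribosomal protein genes encode the protein part of the large and small subunits of the cytosolic ribosome. They were taken as the genes whose FlyBase symbol starts with RpL or RpS, without pseudogenes, RpS6 kinase genes and the testis copy *RpL10Aa*. The annotation held 91 such symbols, and 86 of them had a row of the same gene ID among the 17489 genes of each count table. By their symbols, 50 of these 86 genes were counted with the large subunit, including 4 with its stalk, and 36 with the small subunit. The 4 include *RpLP0-like* and the 50 include *RpL24-like*, both counted there by name only. *RpL19*, *RpL27A*, *RpL31*, *RpS10b* and *RpS12* had no row of the same ID and were not analysed here.

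The RNA came from the heads of male *Drosophila melanogaster* of the genotype *Gr5a>UAS-Rpl3-3XFLAG*, in which *Gr5a*-GAL4 drives a FLAG-tagged Rpl3 in the sweet-sensing *Gr5a+* taste neurons. Translating mRNA affinity purification (TRAP) pulls down tagged ribosomes with an anti-Flag antibody and recovers the mRNAs bound to them. Flies ate a sugar diet with 30% sucrose (SD + OSMI, replicates 4, 5 and 6) or a control diet with 5% sucrose (CD + OSMI, replicates 1, 2 and 3) between days 5 and 12. Both diets carried 10 μM OSMI-1, an inhibitor of O-GlcNAc Transferase, in 10% DMSO, so the comparison is of the diets in the presence of the inhibitor, and no libraries without it were analysed here. Each replicate pooled 300 heads. Levels are given in CPM, counts per 1000000 counts of a library after scaling by the trimmed mean of M values. The sweet taste receptor genes that define the cells were near 0 (their 8 genes summed to 3.91 ± 1.13 CPM on SD + OSMI and 4.08 ± 1.55 CPM on CD + OSMI, SD, n = 3 each), whereas 13 photoreceptor genes summed to 29335 ± 2886 CPM on SD + OSMI and 31220 ± 4016 CPM on CD + OSMI. The paper reports *Gr5a*, *Gr64f* and *Gr64a* as enriched over input and the bitter receptor genes *Gr66a* and *Gr32a* as depleted. No input libraries were analysed here, so enrichment was not tested. The libraries are therefore described as pull-downs from heads. In such pooled material, a lower share of cells and less RNA per cell cannot be told apart.

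In eukaryotes the large subunit forms peptide bonds and carries a flexible stalk of P proteins that recruits and activates translation factors, and the small subunit reads the mRNA. Most ribosomal proteins are made in near equal numbers, their mRNAs are among the most abundant and shortest in a cell, and their output follows growth and nutrient signals such as TOR. In flies, losing a single copy of many of these genes gives the Minute phenotype of slow growth and short bristles. Some have a second copy, often used mainly in the germ line.

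Most ribosomal protein mRNAs differed little between the diets. Counts were tested in edgeR over 11915 genes with at least 10 counts in 3 libraries. Of the 82 ribosomal protein genes in that set, 3 were higher on SD + OSMI at an adjusted p under 0.1, namely *RpLP1*, *RpL38* and *RpS20*. Over all genes the test called 6.91% higher and 2.18% lower. The test called 0 ribosomal protein genes lower, and 0 were lower at an unadjusted p under 0.05, where 6.85% of all genes were. At that unadjusted level 13 were higher, against 14.5% of all genes. DESeq2 called 7 higher and 0 lower, beside 9.16% and 2.87% of all genes. limma-voom called 4 higher and 0 lower, beside 6.55% and 1.79%.

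The log2 fold changes of the 82 genes ran between -0.49 and 0.98, with a median of 0.11 (-0.0027 over all genes tested). The sign was positive in 69 and negative in 13. For 36 genes the change lay within 0.1 of 0 and for 64 within 0.2. The median size of a change was 0.11, with a median SE of 0.10, whereas over all genes they were 0.19 and 0.18. In a test of practical equivalence, 70 of the 82 genes differed by less than 1.5-fold (q under 0.05), as did 47.1% of all genes tested. The 12 genes outside that call were *RpLP1*, *RpL38*, *RpS20*, *RpS29*, *RpL41*, *RpL37A* and the low copies *RpL22-like*, *RpS19b*, *RpS5b*, *RpS15Ab*, *RpLP0-like* and *RpS10a*. The subunits gave similar values: 42 of 48 large subunit and stalk genes and 28 of 34 small subunit genes were equivalent, with medians of 0.11 in each.

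**Figure D1:**
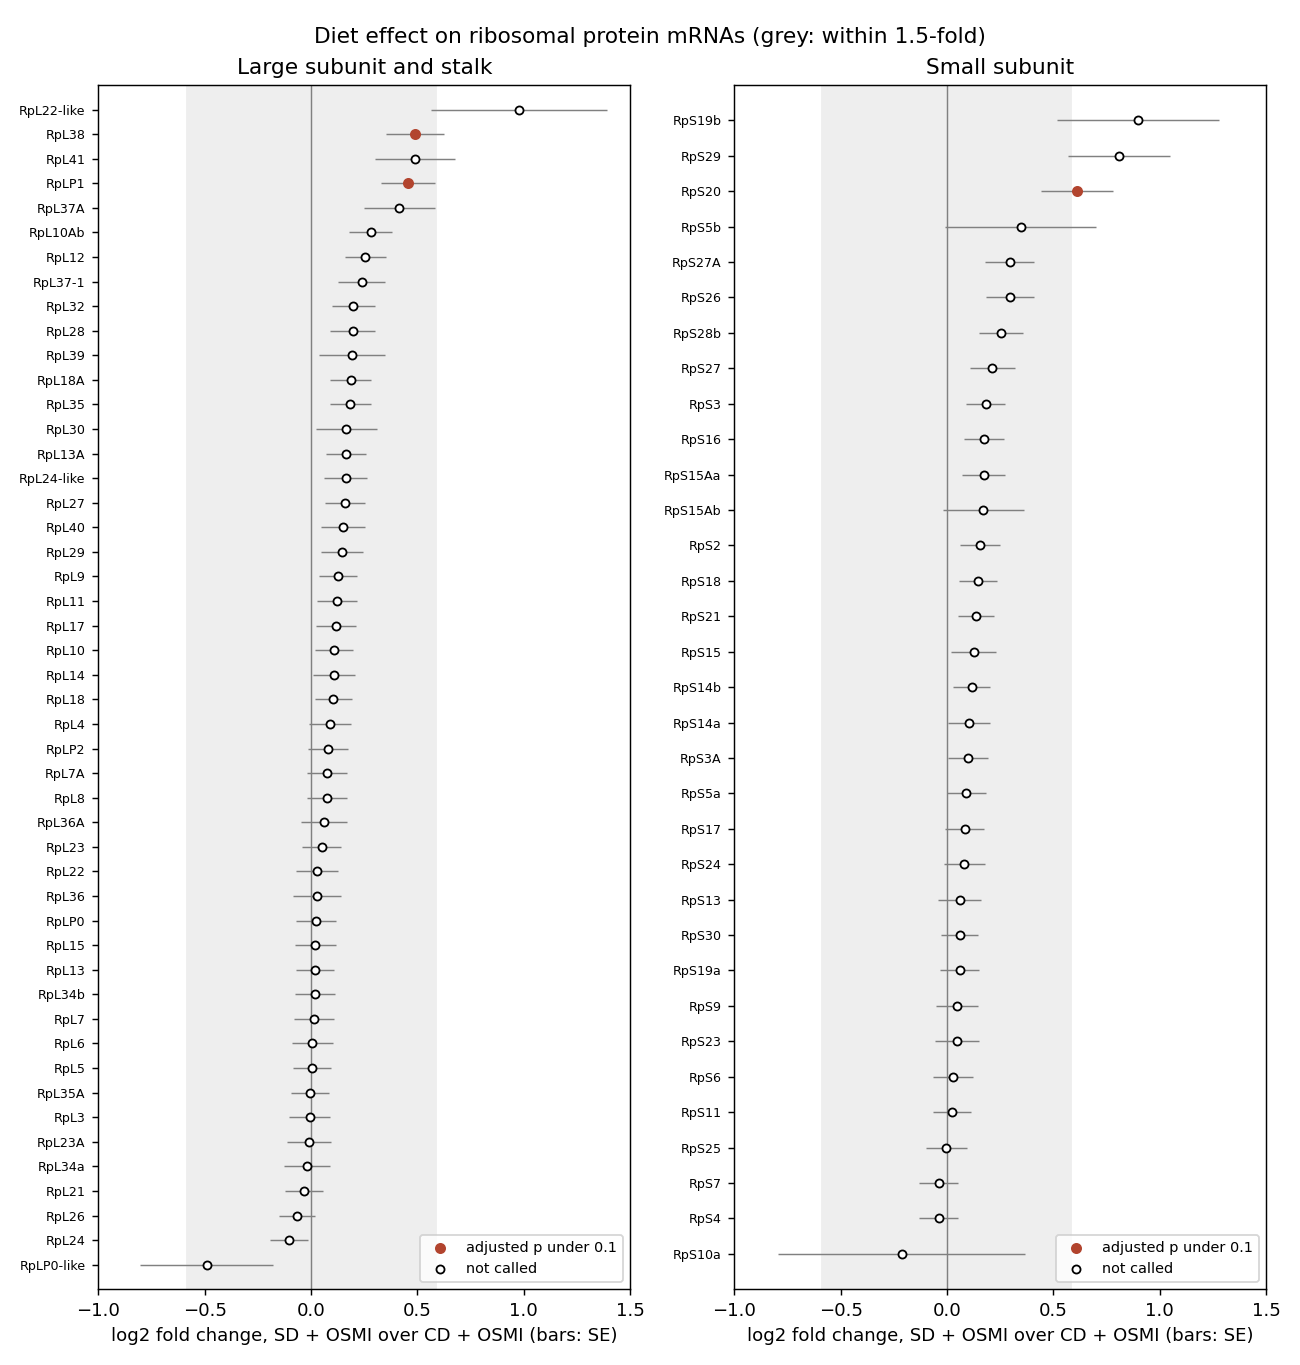
Log2 fold change (SD + OSMI over CD + OSMI, bars are the SE) of 81 of the 82 tested ribosomal protein genes, large subunit and stalk at left and small subunit at right. Filled points are *RpLP1*, *RpL38* and *RpS20*, with an adjusted p under 0.1, and most other points crowd between 0 and 0.2 inside the grey 1.5-fold band.

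The excess of positive signs went largely with SD + OSMI replicate 6. This library was the highest of the 6 for 73 of the 82 genes. Relative to the CD + OSMI mean, the median log2 deviation was -0.0092 in SD + OSMI replicate 4, 0.057 in replicate 5 and 0.25 in replicate 6, against 0.023, 0.021 and -0.038 in CD + OSMI replicates 1, 2 and 3. Replicate 4 therefore sat among the CD + OSMI libraries, and replicate 6 above all of them. Ribosomal protein genes took 3.24, 3.52 and 3.94% of all counts in SD + OSMI replicates 4, 5 and 6, against 3.37, 3.26 and 3.26% in CD + OSMI replicates 1, 2 and 3. Summed over the 86 genes, the level was 35484 ± 3544 CPM on SD + OSMI and 33221 ± 921 CPM on CD + OSMI (SD, n = 3 each; exact permutation test, two-sided p = 0.5, where 0.1 is the smallest possible). The groups overlapped, and the difference was within the spread between replicates.

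SD + OSMI replicate 6 stood apart in other ways. It had 13324513 counts, where the other libraries had 15252054 to 16122009. The mitochondrial large ribosomal RNA took 1.22% of its counts and the whole mitochondrial genome 3.16%, against 0.197 to 0.256% and 1.19 to 1.54% in the others. Without this library the median log2 fold change of the 82 genes was 0.024 and 50 had a positive sign. Of the 82 genes 0 were called, in a fit that called 42 of all 11758 genes higher. Without SD + OSMI replicate 4 the median was 0.18 and 27 were called higher, in a fit that called 1634 of all 11756 genes higher. Dropping replicate 1 of CD + OSMI left only *RpL38*, where 890 of 11751 genes were called higher. Leaving out SD + OSMI replicate 5, or either of replicates 2 and 3 of CD + OSMI, left no call. Those fits called 103 of 11677, 123 of 11791 and 159 of 11779 genes higher, in that order. The log2 fold changes of *RpLP1*, *RpL38* and *RpS20* were then still 0.51, 0.52 and 0.66 without SD + OSMI replicate 5, 0.52, 0.42 and 0.65 without replicate 2 of CD + OSMI, and 0.41, 0.47 and 0.61 without its replicate 3. Genes of male organs also moved with diet: 39 testis genes (17 of 36 tested called higher) summed to 3745 ± 758 CPM on SD + OSMI and 2296 ± 351 CPM on CD + OSMI, and 21 accessory gland genes to 358 ± 91.4 and 217 ± 21.3 CPM, with no overlap between the diets, while 13 fat body genes summed to 7089 ± 916 and 10739 ± 1178 CPM. The part of these differences in the ribosomal protein values was not tested.

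**Figure D2:**
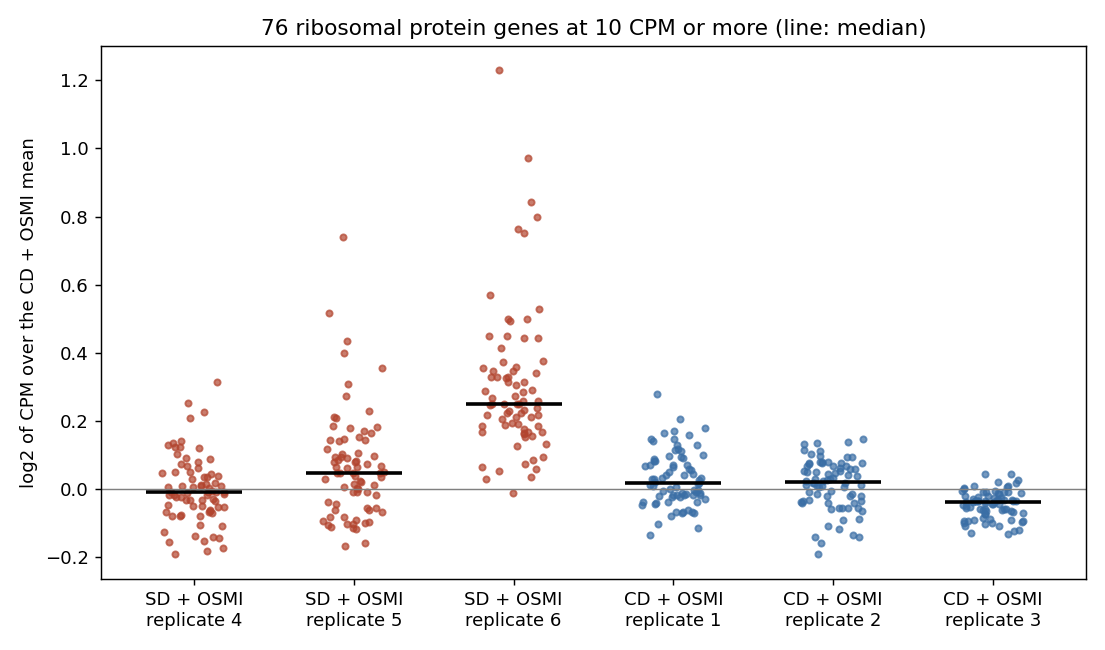
Log2 of each gene's CPM over its CD + OSMI mean, by library, for the 76 ribosomal protein genes at 10 CPM or more on both diets, with the median as a line. The cloud of SD + OSMI replicate 6 centres on 0.25, that of replicate 5 on 0.046 and that of replicate 4 on -0.011, close to the 3 CD + OSMI libraries.

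Of the 3 P proteins of the stalk, *RpLP1* was called. *RpLP1* (FBgn0002593, chr2L:419952-420864, plus strand) encodes P1, an acidic protein that pairs with P2 on the stalk. It had 406, 450 and 592 CPM in SD + OSMI replicates 4, 5 and 6, against 347, 379 and 328 CPM in CD + OSMI replicates 1, 2 and 3. All SD + OSMI libraries were above all CD + OSMI libraries, with replicate 6 well above the rest, and the log2 fold change was 0.46 ± 0.13 (SE; edgeR adjusted p = 0.0668). Its partner *RpLP2* had 623, 597 and 696 CPM on SD + OSMI and 634, 614 and 565 CPM on CD + OSMI. *RpLP0*, the base on which the P1 and P2 pairs sit, had 661, 634 and 774 CPM on SD + OSMI and 669, 698 and 669 CPM on CD + OSMI. Both overlapped between the diets and were equivalent within 1.5-fold, with log2 fold changes of 0.08 ± 0.09 and 0.02 ± 0.10 (SE). Whether *RpLP1* differed from its partners in its response was not tested.

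The other call in the large subunit was *RpL38* (FBgn0040007, chr2R:4515388-4516458, minus strand), a small surface protein whose loss in mice alters the translation of some *Hox* mRNAs. It had 61.3, 70.9 and 89.1 CPM on SD + OSMI and 59.3, 46.9 and 51.2 CPM on CD + OSMI. The diets did not overlap, although SD + OSMI replicate 4 and CD + OSMI replicate 1 lay close together. The log2 fold change was 0.49 ± 0.14 (SE; edgeR adjusted p = 0.0694).

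In the small subunit *RpS20* rose (FBgn0019936, chr3R:20822181-20823356, plus strand). The protein lies in the head of the subunit. It had 221, 266 and 364 CPM on SD + OSMI and 177, 196 and 185 CPM on CD + OSMI, again with no overlap and with replicate 6 highest. The log2 fold change was 0.61 ± 0.17 (SE; edgeR adjusted p = 0.0910). An exon of *CG17272* on the other strand overlaps *RpS20* by 44 bases, and the strand setting of the counting is not given in the sources used here. Without SD + OSMI replicate 6 the log2 fold changes were 0.29 for *RpLP1* (edgeR adjusted p = 0.228), 0.34 for *RpL38* (0.244) and 0.40 for *RpS20* (0.148).

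Another 4 small proteins were also highest in SD + OSMI replicate 6 and did not pass the edgeR threshold. *RpS29*, a zinc-binding protein of the small subunit head, had 135, 181 and 255 CPM on SD + OSMI and 119, 105 and 101 CPM on CD + OSMI. Its log2 fold change was the largest among the abundant genes, 0.81 ± 0.24 (SE; edgeR adjusted p = 0.135), and DESeq2 and limma-voom called it, with adjusted p of 0.000137 and 0.0553. *RpL37A*, a zinc-ribbon protein of the large subunit, had 221, 237 and 351 CPM on SD + OSMI and a tight 200, 200 and 205 CPM on CD + OSMI (log2 fold change 0.42 ± 0.17, SE; edgeR adjusted p = 0.20, DESeq2 adjusted p = 0.0459). *RpL41*, whose coding sequence of 75 bases was the shortest of the set, had 140, 168 and 228 CPM on SD + OSMI and 147, 115 and 120 CPM on CD + OSMI, with an overlap between SD + OSMI replicate 4 and CD + OSMI replicate 1 (log2 fold change 0.49 ± 0.19, SE; edgeR adjusted p = 0.201, DESeq2 adjusted p = 0.0235). *RpS26*, which contacts the mRNA near the exit channel, had 585, 625 and 817 CPM on SD + OSMI and 550, 557 and 546 CPM on CD + OSMI (log2 fold change 0.30 ± 0.11, SE; edgeR adjusted p = 0.15, DESeq2 adjusted p = 0.107).

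Outside the small proteins, *RpL10Ab*, a protein of the mobile L1 stalk, lay close to the threshold. It had 431, 465 and 568 CPM on SD + OSMI and 397, 407 and 402 CPM on CD + OSMI (log2 fold change 0.28 ± 0.10, SE; edgeR adjusted p = 0.128). It passed in DESeq2 (adjusted p = 0.0950) and in edgeR with no filter on low counts (adjusted p = 0.0850). Its testis copy *RpL10Aa*, outside the set by its definition, was called higher (log2 fold change 1.03; edgeR adjusted p = 0.0733). *RpS27A* and *RpL40* are made as fusions to ubiquitin and so also supply free ubiquitin. *RpS27A* had 229, 281 and 328 CPM on SD + OSMI and 238, 214 and 231 CPM on CD + OSMI, and *RpL40* had 287, 317 and 385 CPM on SD + OSMI and 315, 286 and 290 CPM on CD + OSMI. Both overlapped between the diets and were equivalent within 1.5-fold. In all, 15 of the 82 genes were higher on SD + OSMI with no overlap between the diets (14.5% of all genes tested) and 0 were lower with no overlap (10.2% of all genes tested).

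**Figure D3:**
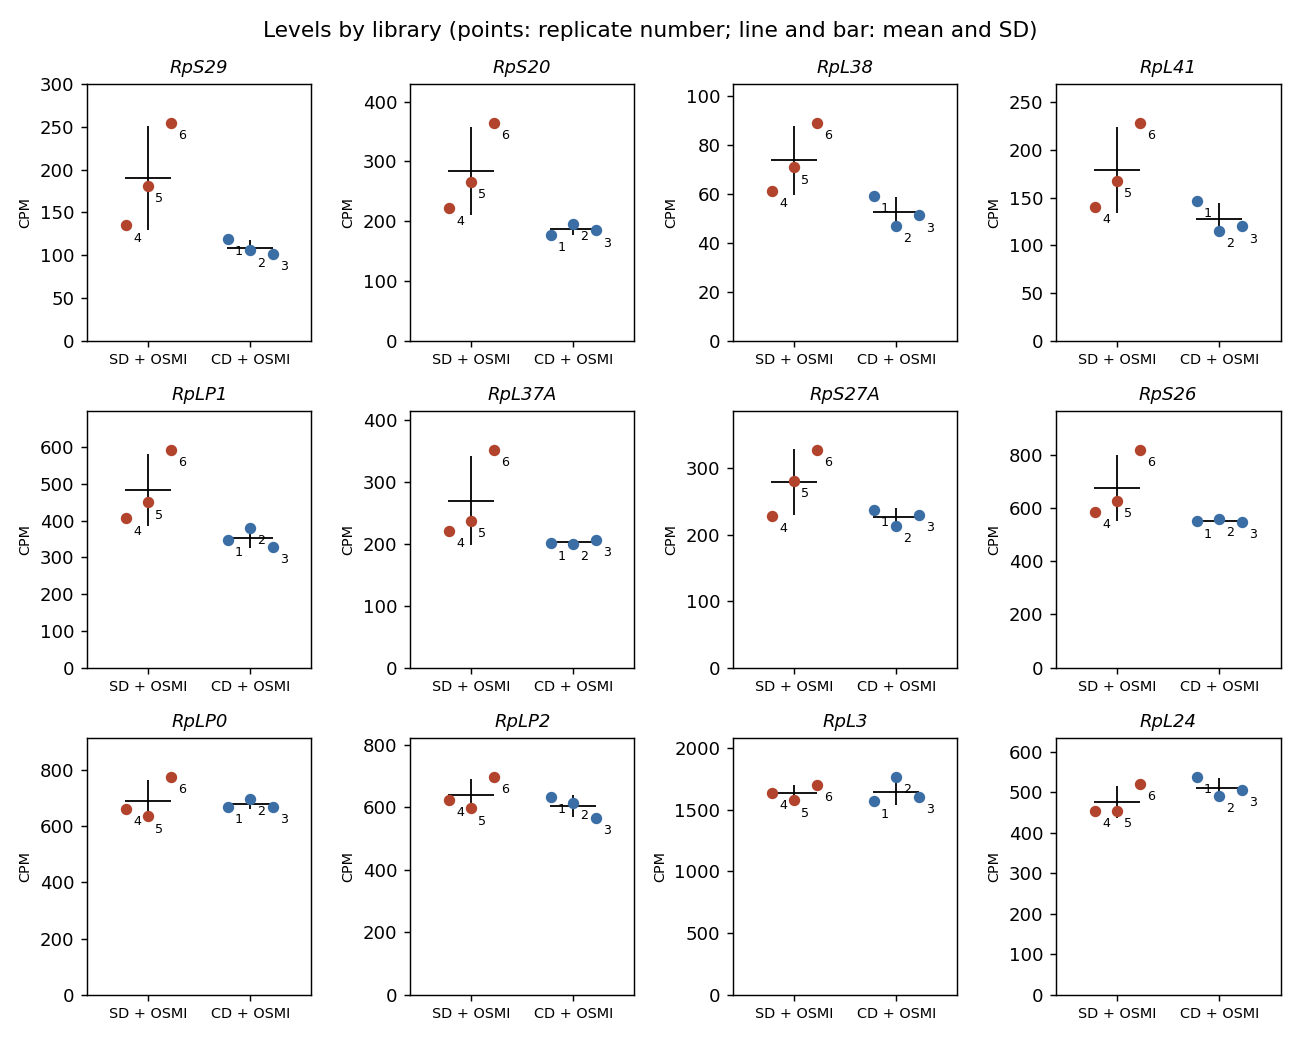
CPM (linear axis from 0) of 12 ribosomal protein genes in each library, labelled by replicate number, with SD + OSMI left of CD + OSMI and the mean and SD in black. *RpS29*, *RpS20*, *RpL38* and *RpLP1* lie higher in all SD + OSMI libraries with replicate 6 on top, and *RpLP0*, *RpLP2*, *RpL3* and *RpL24* overlap.

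*RpL3* encodes the endogenous form of the tagged protein (FBgn0020910, chr3R:11221894-11225173, plus strand). It had 1633, 1575 and 1703 CPM on SD + OSMI and 1566, 1763 and 1602 CPM on CD + OSMI, which made it the member with the highest CPM. The diets overlapped and the log2 fold change was -0.0056 ± 0.096 (SE). Reads of the *UAS-Rpl3-3XFLAG* transgene could be counted in this gene, and this was not tested. Exons of 30 of the 86 genes overlap another gene, among them 496 bases of *RpL3* (with *asRNA:CR31144* and a snoRNA), 273 of *RpL24* (with *CG7099*) and 153 of *RpL37A* (with *asRNA:CR45305*), and reads of antisense partners cannot be told apart where strand was not used. The genes with negative signs moved little where they were abundant. *RpL24*, a protein at the bridge between the subunits, had 454, 455 and 522 CPM on SD + OSMI and 538, 492 and 506 CPM on CD + OSMI (log2 fold change -0.10 ± 0.09, SE), *RpL26* had -0.06 ± 0.08, and *RpS4* and *RpS7* had -0.04 ± 0.09 each. All 4 were equivalent within 1.5-fold.

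Levels per kb of transcript were spread 7.56-fold over 73 tested genes (16.5-fold per kb of all exons), against 807-fold over all 82. Those left out were the lower copies and like genes *RpL22-like*, *RpL24-like*, *RpLP0-like*, *RpL34a*, *RpS5b*, *RpS14b*, *RpS15Ab*, *RpS19b* and *RpS10a*. At 88.6, 98.1 and 104 CPM per kb, *RpL34a*, *RpS14b* and *RpL24-like* were well above the rest of these. Of the 86 genes, 71 had at least 100 CPM on both diets and 10 had less than 10 CPM on both. The CPM per kb used the shortest annotated transcript that holds the whole coding sequence, averaged over the diets. For the 73 genes the median was 600 CPM per kb, and the quartiles 488 and 802. Among the 44 of them in the large subunit and stalk the highest and lowest differed 7.54-fold (16.5-fold per kb of all exons). Near the top, *RpL3* had 1185 ± 46.5 CPM per kb on SD + OSMI and 1190 ± 75.8 on CD + OSMI (SD, n = 3 each). *RpS4* had 1061 ± 47.3 and 1090 ± 46.2, *RpS7* 1059 ± 75.3 and 1088 ± 47.7, and *RpLP2* 1057 ± 85.6 and 1001 ± 58.6 CPM per kb. The order depended on the length used: per kb of all exons *RpLP2* came first and *RpL3* was number 8. *RpS4*, *RpS7* and *RpLP2* overlapped in their spread on each diet, whereas *RpL3* lay above *RpS4* beyond the spread on SD + OSMI. At the other end stood *RpL38* with 184 ± 35.2 CPM per kb on SD + OSMI and 131 ± 15.7 on CD + OSMI, *RpL39* with 232 ± 39.1 and 202 ± 37.3, and *RpL30* with 258 ± 57.8 and 229 ± 17.9.

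The log2 fold change followed coding length within the set. The 27 genes with the shortest coding sequences (75 to 420 bases) gave 0.17 as the median log2 fold change, with 26 positive signs. The 28 genes of 429 to 573 bases had a median of 0.11, and the 27 genes of 582 to 1248 bases a median of 0.029 with 21 positive signs. Across the 82 genes, which share the same 6 libraries and are not independent replicates, Spearman's rho of log2 fold change with coding length was -0.44. *RpLP1*, *RpL38*, *RpS20*, *RpS29*, *RpL37A* and *RpL41* were all among the shortest 27. The same order held outside the set, so it was not particular to ribosomal protein genes. There 896 other genes of up to 420 coding bases had a median of 0.17, and 9209 of at least 582 bases a median of -0.016. The size depended on the filter: with at least 50 counts in 3 libraries, 503 such short genes had a median of 0.096 and 7821 long ones -0.027. The 25 shortest ribosomal protein genes kept a median of 0.17 under that filter. The difference between the medians of the shortest and longest ribosomal protein genes was 0.14 with all libraries, 0.057 when CD + OSMI replicate 2 was left out and 0.11 when SD + OSMI replicate 6 was. The grouping by length was chosen after the values were seen.

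**Figure D4:**
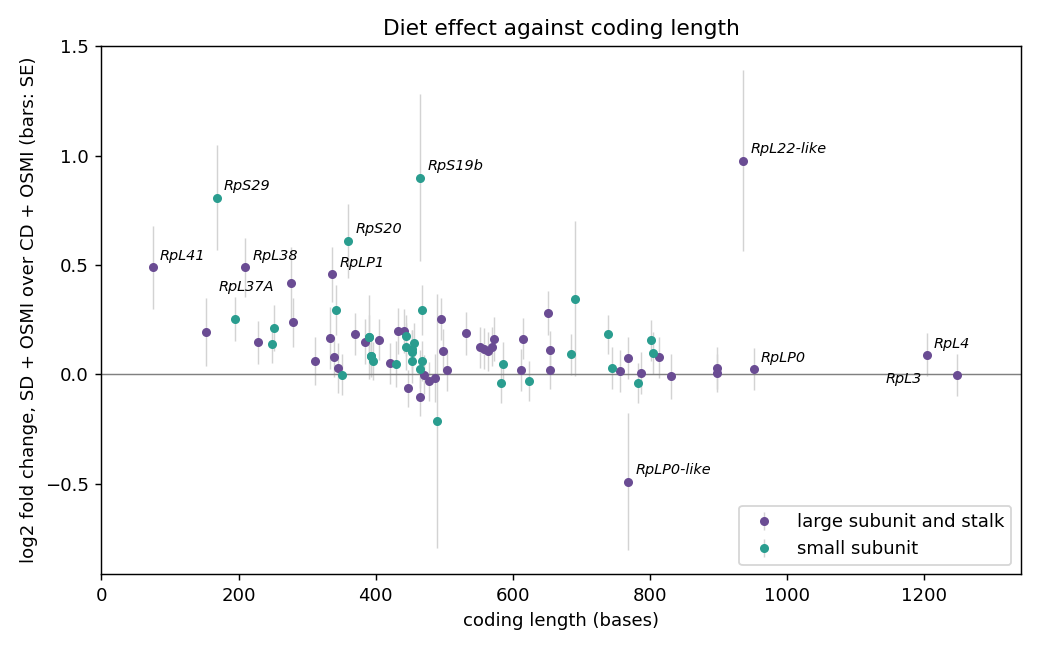
Log2 fold change (SD + OSMI over CD + OSMI, bars are the SE) against coding length in bases for the 82 tested ribosomal protein genes, coloured by subunit. The points above 0.4 are short genes, apart from the low copies *RpS19b* and *RpL22-like*, and long genes such as *RpL3* and *RpL4* lie near 0.

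Duplicated genes were compared through the log2 ratio of the copies per kb within each library, which does not depend on library scaling. There were 12 pairs that could be set side by side and 11 had at least 10 counts in each copy. After adjustment over these 11 pairs the smallest p was 0.367 (exact permutation test, two-sided, n = 3 each, smallest raw p 0.1), so no ratio was shown to differ between the diets. In most pairs a single copy supplied nearly all of the mRNA.

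The most even pair was *RpL34a* with *RpL34b*. *RpL34b* lay 3.78-fold above *RpL34a* per kb, with 337 ± 41.4 against 88.1 ± 11.6 CPM per kb on SD + OSMI and 333 ± 13.1 against 89.1 ± 8.57 CPM per kb on CD + OSMI. The difference of the log2 ratio between diets was -0.033 (exact permutation p = 1). *RpS14a* (chrX:7933742-7934677) and *RpS14b* (chrX:7934898-7935792) are neighbours on the X chromosome, form another pair in which both copies were abundant, and both encode S14, on the platform of the small subunit. *RpS14a* gave 87.6% of their counts on SD + OSMI and 87.7% on CD + OSMI. Where the coding sequences of copies are near identical, as in these tandem genes, reads may not be assigned to a copy with certainty, and both values carry that limit.

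The remaining second copies were far below their partners. *RpS15Ab* lay 54.5-fold below *RpS15Aa* per kb, with a ratio that differed by 0.0057 on the log2 scale between diets. *RpL22-like*, which in flies is used with *RpL22* in the male germ line, lay 310-fold below it. *RpL22-like* had 1.84, 3.01 and 4.37 CPM on SD + OSMI and 0.969, 2.13 and 1.56 CPM on CD + OSMI, with an overlap between the diets (log2 fold change 0.98 ± 0.41, SE; edgeR adjusted p = 0.189). *RpS19b*, a germ-line copy, lay 270-fold below *RpS19a* and had 2.03, 2.38 and 3.39 CPM on SD + OSMI and 1.68, 1.23 and 1.23 CPM on CD + OSMI (log2 fold change 0.90 ± 0.38, SE; edgeR adjusted p = 0.187). Its log2 ratio to *RpS19a* was -7.85, -7.72 and -7.42 on SD + OSMI and -8.21, -8.64 and -8.61 on CD + OSMI. This ratio did not overlap between the diets, in the same libraries in which the summed testis genes did not overlap, and the part of testis RNA in it was not tested.

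*RpS5b*, another germ-line copy, was 226-fold below *RpS5a* and had 1.77, 3.32 and 2.63 CPM on SD + OSMI and 2.13, 2.13 and 1.82 CPM on CD + OSMI, which overlap. *RpL37-2* had 35 counts in all libraries and lay 986-fold below *RpL37-1*, with a log2 ratio of -9.79, -8.98 and -9.55 on SD + OSMI and -11.00, -10.23 and -10.12 on CD + OSMI, which did not overlap. *RpS28-like* had 62 counts and *RpS28a* 17, at 639-fold and 1475-fold below *RpS28b*, with which both were compared. *RpL7-like* had 0 counts in all 6 libraries. *RpL7-like* shares 1771 of its 1793 exon bases with *CG34164* on the same strand, which also had 0 counts in all 6 libraries. Reads there could not be assigned to a single gene, so the 0 sets no limit on the level of *RpL7-like*. *RpS10a* was the lowest tested gene, at 0.507, 1.5 and 0.452 CPM on SD + OSMI and 1.36, 0.617 and 0.908 CPM on CD + OSMI.

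*RpL24-like* and *RpLP0-like* are named after ribosomal proteins, although their yeast relatives Rlp24 and Mrt4 work in ribosome assembly. *RpL24-like* had 82.5, 77.0 and 95.2 CPM on SD + OSMI and 84.5, 73.8 and 69.1 CPM on CD + OSMI. Its log2 ratio to *RpL24* was -2.43, -2.53 and -2.42 on SD + OSMI and -2.64, -2.71 and -2.84 on CD + OSMI. The ratio did not overlap between the diets and differed by 0.27, with *RpL24-like* above and *RpL24* below its CD + OSMI mean, although neither gene passed the test. *RpLP0-like* went the other way, at 3.04, 2.19 and 2.79 CPM on SD + OSMI and 3.29, 5.01 and 2.99 CPM on CD + OSMI, with an overlap between the diets (log2 fold change -0.49 ± 0.31, SE; edgeR adjusted p = 0.402).

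**Figure D5:**
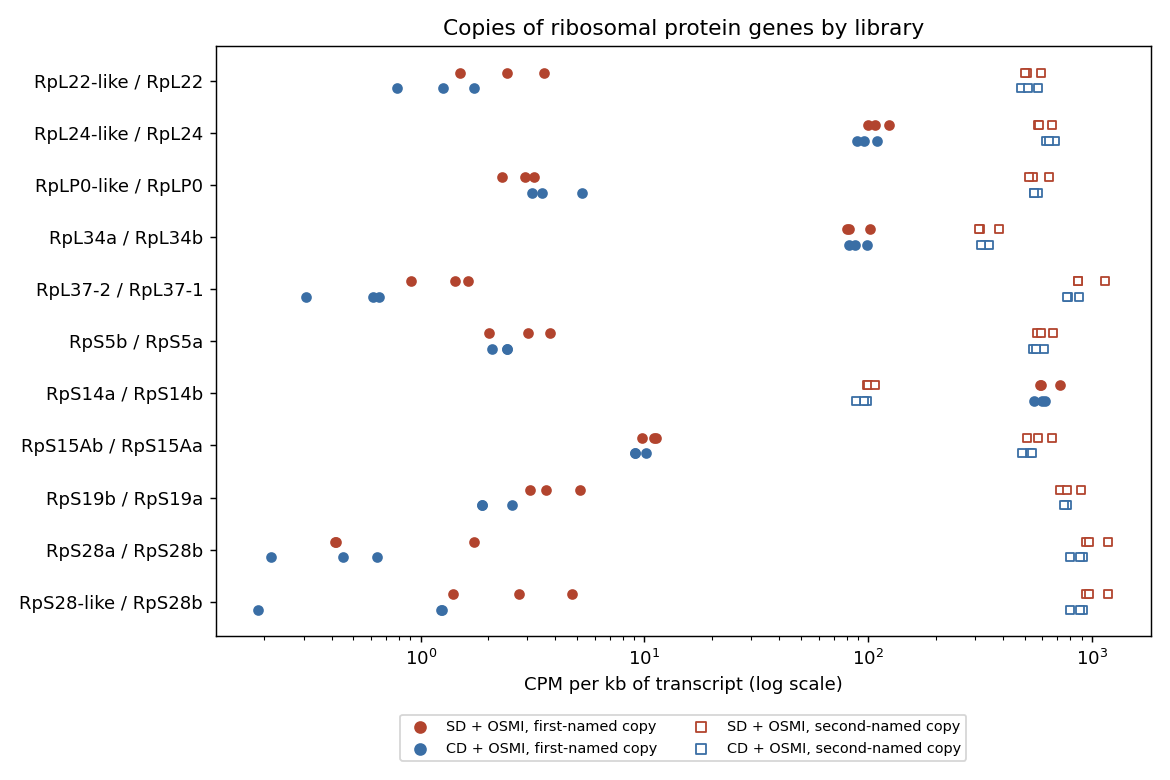
CPM per kb of transcript (log axis) of both copies in 11 pairs, 1 point per library, with SD + OSMI above CD + OSMI. Filled circles are the first-named copy and open squares the second-named copy, and the copies lie closest in *RpL34a* and *RpL34b*, which differ 3.78-fold.

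Other genes of the translation machinery also showed few calls, where edgeR called 6.91% of all genes higher and 2.18% lower. Of 29 initiation factor genes tested 0 were called in edgeR and 29 were equivalent within 1.5-fold, with a median log2 fold change of 0.072. At an unadjusted p under 0.05, 2 of them were higher and 1 lower, and DESeq2 called 1 lower and limma-voom 0. The nearest were *eIF3k* (68.0 ± 8.94 CPM on SD + OSMI and 56.0 ± 4.24 CPM on CD + OSMI) and *eIF3i* (70.6 ± 4.39 and 59.6 ± 5.25 CPM), subunits of the factor that prepares the small subunit, and *eIF4G1*, the scaffold of cap binding (330 ± 17.6 and 383 ± 14.9 CPM; SD, n = 3 each). The 8 elongation and termination factor genes had a median of -0.024. *eEF1alpha1* and *eEF5* had no single match and were not in that list. A second list held 8 genes taken as ribosome-associated, matched by symbol, with a median of 0.052. These were *Rack1*, *Nacalpha*, *bic*, *Ssb-c31a*, *Hsc70-4*, *Ltn1*, *pelo* and *HBS1*, and *Ssb-c31a* is not an established gene of that kind. In both lists edgeR, DESeq2 and limma-voom called 0, and 0 passed an unadjusted p under 0.05. Genes of the mitochondrial ribosome, which translates the organelle's own mRNAs, had a median of 0.0036 over 70 genes, with 0 called by the 3 tools, while 1 was higher and 2 were lower at the unadjusted level of 0.05. Only 12 of these 70 were equivalent within 1.5-fold, at a median SE of 0.25.

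Ribosome assembly and its regulators held the 3 other edgeR calls. Over all genes edgeR called 6.91% higher and 2.18% lower, DESeq2 9.16% and 2.87%, and limma-voom 6.55% and 1.79%. At an unadjusted edgeR p under 0.05, 6.85% of all genes were lower. A list of 43 genes, matched by symbol, was taken for ribosome biogenesis. Some of them, such as *pes*, *Rrp1*, *Rlip*, *Ssl1* and *Nap1*, are not established genes of that process. Of the 43 genes, 2 were higher and 0 lower in edgeR, DESeq2 and limma-voom alike. At an unadjusted p under 0.05, 0 were lower, and the median of the list was 0.040. *nop5*, a core protein of box C/D snoRNPs that guide rRNA methylation, had 18.9 ± 0.985 CPM on SD + OSMI and 12.0 ± 0.644 CPM on CD + OSMI (SD, n = 3 each; log2 fold change 0.65 ± 0.14, SE; edgeR adjusted p = 0.0259). *Rrp6*, a nuclease of the nuclear exosome, had 61.7 ± 6.28 and 49.2 ± 3.77 CPM (log2 fold change 0.33; edgeR adjusted p = 0.0727). Of 16 regulators of ribosomal protein synthesis and growth, only *Thor* was called higher and 0 lower by the 3 tools. At an unadjusted p under 0.05, 0 were lower, and the median was -0.061. *Tor* and *S6k* had no single match and were not among these 16. *Thor* encodes 4E-BP, which restrains cap-dependent initiation, and had 85.0 ± 11.0 CPM on SD + OSMI and 58.2 ± 7.19 CPM on CD + OSMI (log2 fold change 0.55 ± 0.11, SE; edgeR adjusted p = 0.0198). *Myc*, an activator of ribosome production, had 196 ± 18.4 and 171 ± 4.69 CPM and was not called (edgeR adjusted p = 0.216). The 12 RNA polymerase I genes had a median of 0.067, with 0 called by the 3 tools and 0 at an unadjusted p under 0.05. Without SD + OSMI replicate 6 none of *nop5*, *Rrp6* and *Thor* was called (edgeR adjusted p = 0.15, 0.194 and 0.137), and dropping replicate 2 or replicate 3 of CD + OSMI left a single call each. Their log2 fold changes without SD + OSMI replicate 6 were 0.63, 0.38 and 0.58 in the same order of genes, close to or above those with all libraries.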

How the data were processed

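HTSeq counts per gene were deposited by the authors as whole numbers, from reads with a quality score of at least 30 aligned by STAR to BDGP6. The submitters' processing notes also name SAMtools 1.4 and DESeq2 1.18.0. The strand setting and the handling of reads from near-identical copies are not given in the sources used here. Totals were 13324513 to 16122009 counts per library. Replicates are separate pools of heads and differed by more than counting noise (chi-square per degree of freedom 10.0 to 31.0).

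Counts were tested with edgeR 4.0.16 (R 4.3.3, quasi-likelihood, TMM, robust) on genes with at least 10 counts in 3 libraries, with Benjamini-Hochberg adjustment over all 11915 genes and a threshold of 0.1. The SE of an edgeR log2 fold change was derived as its absolute value over the square root of the F statistic. DESeq2 1.42.0 and limma 3.58.1 were alternatives. Practical equivalence used a 1.5-fold limit on the DESeq2 fit. Pair ratios had 0.5 counts added to each copy. Lengths, coordinates and names came from the Ensembl annotation of BDGP6. Code was tested on simulated data. The rule for named genes took the called ones, both copies of each pair, RpL3, and the 5 highest and 5 lowest per kb. It also took up to 10 largest changes each way and up to 4 of smallest p per other list. Some genes were named outside this rule, among them *RpS26*, *RpL10Ab*, *RpL40*, *RpL39* and *RpL30*. The members and lists were chosen with earlier results of these data known, and 15 entries of the lists had no single match. The values of 1 ribosomal protein gene are not reported here on their own.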

Additional observations from a re-analysis of the deposited data

How the results depend on the processing

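The number of ribosomal protein genes called higher was 3 with RLE or upper-quartile factors, with the testis and accessory gland lists out of the scaling, with no filter and, chosen after the data were seen, with the ribosomal protein genes themselves out of the scaling. It was 7 in DESeq2, 0 at an adjusted p under 0.05, and 0 to 27 when each library was left out in turn. None was called lower under any of these. With the narrower equivalence limit 0 were equivalent, and with the 2-fold limit 76. *RpS20* lost its call with no filter, a filter of 50 counts, the 20 most abundant genes out of the scaling, or the mitochondrial genes out of it (edgeR adjusted p = 0.194, 0.109, 0.118 and 0.119), while its log2 fold change stayed between 0.61 and 0.62. The median log2 fold change ranged over 0.024 to 0.18 when each library was left out, the summed difference over 229 to 3469 CPM, and the difference by coding length over 0.057 to 0.20. Of 11 pairs, 3 had no overlap with all libraries, each with the smallest possible p of 0.1 (exact permutation test, 0.367 after adjustment). When each library was left out, 3 to 7 had no overlap. With fewer libraries no overlap is easier to reach, so these counts cannot be compared directly. Other translation genes called numbered 0 to 7 higher and 0 to 5 lower when each library was left out, and 1 lower in DESeq2. The cause of these shifts was not tested. Over all genes, 42 to 1634 were called higher and 34 to 800 lower when each library was left out. No paired analysis was possible because the diets share no replicate numbers.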
